A study of Allium mongolicum with 12 samples.

Results

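Roots of the wild onion Allium mongolicum were compared between 24 h and 48 h in a mixed saline-alkali solution, across the 20747 transcript features that were well measured at these times. A feature was included when its mean over the 6 libraries was at least 5 CPM (a deposited count divided by its column sum and multiplied by 1000000) and each of the 2 group means was at least 1 CPM. These are 21.1% of the 98328 assembled features in the deposited table and 27.2% of the 76273 that entered the tests. They took 92.6% to 92.8% of the counts in the 24 h libraries and 92.7% to 92.8% in the 48 h libraries. All 20747 passed the low-count filter.

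Seedlings were germinated in the dark at 20 °C for 7 days, grown in soil substrate for 45 days at 25 °C with 12 h of light, and kept for 7 days in Hoagland nutrient solution at 0.5 strength before treatment. The solution held sodium chloride, sodium sulfate, sodium bicarbonate and sodium carbonate at 1, 9, 9 and 1 parts and a total of 150 mmol/L. Of 12 libraries, 3 each came from control roots at 0 h (CK) and from roots after 24 h (T24), 48 h (T48) or 72 h (T72) of treatment. Both groups compared here were stressed roots of the same age at the start of treatment. No untreated roots at 24 h or 48 h are among the libraries, so the step cannot be told apart from plant age, hour of harvest or handling. The labels give 20 seedlings per group without saying how they were divided among libraries, and p-values therefore cover only library-to-library variation, part of which may be technical. They give no cultivar or genotype.

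A saline-alkali solution loads roots with sodium, lowers the water potential around them and raises the pH. High pH limits the uptake of iron and phosphate and weakens the proton gradient that drives ion transport across the root cell membrane. Plant roots commonly answer first to the loss of water and later to the ions that accumulate. The file gives assembly IDs with no gene names. The features were therefore not assigned to pathways, root markers were not checked, and no sequence was used here.

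Library totals of the 6 libraries lay between 23923456 and 26388120 estimated counts, and 3 counts, a floor that covers counting error only, corresponded to 0.114 to 0.125 CPM. The 24 h libraries were close to identical, and the 48 h libraries were not. Over the 20747 features, log2 levels correlated at 0.989 to 0.99 between 24 h libraries and at 0.857 to 0.915 between 48 h libraries. The biological coefficient of variation (the square root of edgeR's common dispersion, as a percent of the level) was 8.3% at 24 h and 38.9% at 48 h. At 48 h without replicate 2 it was 30.8%. T48 replicate 2 stood apart. It correlated at 0.893 to 0.927 with the 3 control libraries, at 0.879 to 0.882 with the 24 h libraries, and at 0.857 to 0.86 with the other 48 h libraries. T48 replicates 1 and 3 correlated at 0.822 to 0.865 with the controls and at 0.915 with each other.

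Most of the features were close to level between the times. The fitted change was smaller than 1.5-fold in either direction for 16182 of the 20747 (78%). The middle of the distribution lay at 0.04 on the log2 scale, with quartiles of -0.2 and 0.31, and over all 76273 tested features the median was 0.03. Fitted changes of at least 2-fold numbered 970 upward and 746 downward, and changes of at least 4-fold numbered 94 and 110. The standard error of a single log2 change had a median of 0.23.

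Between 24 h and 48 h, 314 of these features rose and 277 fell (edgeR quasi-likelihood test, adjusted p under 0.05 over all 76273 features). Called features were 2.85% of the 20747, against a background of 1.97% of all features tested. The rises were 1.51%, against 0.467% of all features tested, and the falls were 1.34%, against 1.5%. Well measured features held 88.2% of all rises called at this step and 24.2% of all falls. The remaining falls belonged to features below the level set here or under 1 CPM at one of the times. Another 169 features reached a mean of 5 CPM but stayed under 1 CPM at one of the times, 77 at 24 h and 92 at 48 h. Of these 169, 1 was called higher and 81 were called lower.

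The calls depended on the 24 h libraries. Without T24 replicate 1, 2 or 3 the rises numbered 13, 15 or 17 and the falls 40, 39 or 47, and with the 24 h libraries averaged to 1 neither a rise nor a fall was called. In that averaged fit 558 features were higher and 699 lower at an unadjusted p under 0.05, which 3.62% of all features tested reached. With all libraries these were 2547 and 1933, against 14.9% of all features tested. DESeq2 called 1103 rises and 909 falls, against 6.6% of the 75697 features tested in that fit. Limma with weights per group called 860 and 694, against 5.49% of 76273. The edgeR fit on the 6 libraries alone called 574 and 551, against 6.19% of 65458. The averaged fit tested 93124 features, so the shares are over different sets of features. Which direction led was not stable. Falls also led without T48 replicate 2 (250 rises and 379 falls), without CK replicate 1, 2 or 3 (359 and 366, 337 and 339, 332 and 379), where libraries were scaled by their totals alone (323 and 345), and with no minimum per group mean (315 and 358). Without T48 replicate 1 there were 149 rises and 156 falls, and without T48 replicate 3 there were 371 and 178. Apart from the fit without T48 replicate 2, the fits that left out a library were given no share over all features tested. Whether their counts were particular to these features was therefore not tested.

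Changes were moderate in size. The median log2 rise was 1.18, with 80% of the set between 0.72 and 1.86 and a largest value of 3.52. The median log2 fall was -1.15, with 80% between -1.9 and -0.69 and a largest fall of -3.17. At least a 2-fold change was fitted for 211 of the 314 rises and 182 of the 277 falls, and at least a 4-fold change for 23 and 25. The rises and falls of at least 2-fold were 1.02% and 0.877% of the well measured features. Over all features tested, 1.71% were called and at least 2-fold, both directions together. No such share was worked out for the 4-fold counts. A test against a minimum log2 change of 1 in place of 0 called 4 rises and 13 falls, and 562 of all features tested (0.737%).

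**Figure D1:**
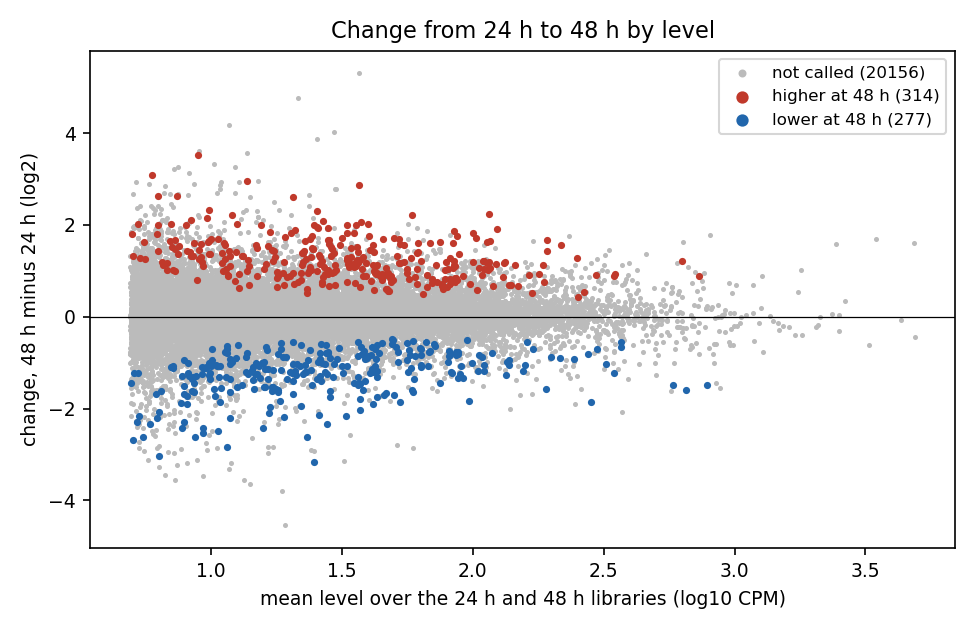
Each point is one of the 20747 features, with its mean level over the 24 h and 48 h libraries (log10 CPM) on the horizontal axis and its fitted log2 change from 24 h to 48 h on the vertical axis. The 314 rises are red, the 277 falls are blue and the 20156 features not called are grey; many of the grey points lie as far from 0 as the called ones.

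Large fitted changes were often not called. Only 48 of the 204 features with a fitted change of at least 4-fold were called. The matching share over all features tested was not worked out, so whether this was particular to these features was not tested. The feature with the largest fitted rise had 1.54, 1.87 and 2.04 CPM at 24 h and 0.863, 8.27 and 206.0 CPM at 48 h. Its value in T48 replicate 3 was far above all others, T48 replicate 1 lay below the 24 h libraries, and the groups overlapped. The fitted change was 5.3 ± 2.02 (SE) on the log2 scale with an edgeR adjusted p of 0.23. The feature with the largest fitted fall had 40.9, 35.1 and 34.1 CPM at 24 h and 0.0822, 4.42 and 0.275 CPM at 48 h. All its 48 h libraries lay below the 24 h libraries, with T48 replicate 2 far above the other 48 h libraries, and the change was -4.54 ± 1.78 (edgeR adjusted p = 0.25). Both features were chosen after their values were seen, by rank alone.

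The 24 h and 48 h libraries did not overlap for 7087 of the 20747 features (34.2%), with 3627 higher and 3460 lower at 48 h. Over all tested features this held for 26.6%, 10.9% higher and 15.8% lower. The narrow spread of the 24 h libraries can make such separation easier. Its part was not tested, and no excess is read from the separation. Of the 591 called features, 590 had their groups apart.

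The share of features called was larger above 20 CPM. Among 10870 features at 5 to 20 CPM, 94 rose and 117 fell, which is 1.94% of them. Among 8018 features at 20 to 100 CPM, 178 rose and 131 fell (3.85%). Among 1859 features at 100 CPM or more, 42 rose and 29 fell (3.82%). The median standard error of the log2 change was 0.28 in the lowest band and 0.17 in both bands above it, so precision moved with the share called, and its part was not tested. The excess of rises at 20 to 100 CPM and above held with median-of-ratios (RLE) scaling (170 and 138, then 39 and 30) and with library totals alone (180 and 168, then 48 and 43). It turned to an excess of falls without T48 replicate 2, with 138 rises and 175 falls at 20 to 100 CPM and 31 and 69 at 100 CPM or more. For the bands and these fits, no share over all features tested was worked out by direction. Whether the counts were particular to these features was therefore not tested.

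The share of the most abundant transcripts that passed the test depended on the tool. Of the 10 highest, edgeR called 0, with fitted log2 changes from -0.62 to 1.7, while 5 had an unadjusted p under 0.05, DESeq2 called 3 and limma called 1. Among the 100 highest 1 rose and 2 fell, and 88 had a fitted change under 2-fold. The share called by edgeR was 3%, near the 2.85% of all 20747. DESeq2 and limma called 23 and 26 of these 100, against 9.7% and 7.49% of all 20747. Among the 1000 highest, which took 35.8% to 36.4% of each library, 16 rose and 18 fell (3.4%) and 932 had a fitted change under 2-fold. DESeq2 and limma called 144 and 159 of these 1000.

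The most abundant feature of all had 5545, 5595 and 5850 CPM at 24 h and 4931, 3532 and 4022 CPM at 48 h. Its 48 h libraries were all lower, but the change of -0.44 ± 0.23 (SE) on the log2 scale did not pass the test (edgeR adjusted p = 0.41). The most abundant feature called higher had 494, 524 and 526 CPM at 24 h and 997, 1086 and 766 CPM at 48 h. Every 48 h library exceeded every 24 h library, with a log2 rise of 0.88 ± 0.18 (edgeR adjusted p = 0.03). At 72 h the same feature had 259, 372 and 294 CPM, below all the 24 h libraries, and in control roots it had 1044, 992 and 744 CPM. The most abundant feature called lower had 1104, 1174 and 1199 CPM at 24 h and 429, 309 and 495 CPM at 48 h, a log2 fall of -1.5 ± 0.29 (edgeR adjusted p = 0.027). At 72 h it was at 1082, 1149 and 1291 CPM, so its 48 h libraries lay below those of both neighbouring times. These 3 features were also chosen by rank after their values were seen.

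With features known by ID only, 2 rises and 2 falls are named. They are those with the largest log2 change among the 220 rises and 159 falls that were called, had their groups apart and reached a mean of 20 CPM. All 4 reached that mean only through the group where they were high. Their lower group means were 8.84 and 5.79 CPM at 24 h for the rises, and 4.92 and 6.5 CPM at 48 h for the falls. TRINITY_DN39244_c0_g1_i3_3 had 11.3, 9.93 and 5.34 CPM at 24 h and 49.3, 106.0 and 38.5 CPM at 48 h. The 48 h libraries were all well above the 24 h libraries, and T48 replicate 2 was the highest. The means were 8.84 ± 3.11 and 64.6 ± 36.2 CPM (SD, n = 3 libraries each), and the fitted log2 rise was 2.87 ± 0.5 (SE), or 7.3-fold, with an edgeR adjusted p of 0.016. In control roots the feature had 18.9, 39.1 and 57.9 CPM, and at 72 h it had 7.65, 15.0 and 10.8 CPM, close to its 24 h values.

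TRINITY_DN40453_c0_g1_i3_4 had 7.79, 5.92 and 3.67 CPM at 24 h and 23.1, 55.2 and 27.2 CPM at 48 h. Again T48 replicate 2 was the highest and no library of one group reached the other. Its log2 rise was 2.6 ± 0.47 (SE), or 6.07-fold (edgeR adjusted p = 0.018). It stood at 9.5, 25.3 and 26.0 CPM in control roots and at 4.62, 7.73 and 4.81 CPM at 72 h. In both of these features the controls were thus above the 24 h and 72 h libraries. Without any one of T24 replicates 1, 2 and 3, neither passed the test, with edgeR adjusted p-values of 0.08, 0.1 and 0.1 for the first and 0.074, 0.11 and 0.11 for the second.

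TRINITY_DN36198_c0_g1_i2_2 had 44.0, 46.8 and 42.0 CPM at 24 h and 3.0, 7.6 and 4.17 CPM at 48 h. The fall was seen in every 48 h library. It measured -3.17 ± 0.46 (SE) on the log2 scale, or 9.01-fold, with an edgeR adjusted p of 0.0075. In control roots the feature was at 21.2, 36.5 and 12.1 CPM, and at 72 h it was at 136.0, 117.0 and 254.0 CPM, its highest level at any time.

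TRINITY_DN27055_c0_g1_i1_3 had 39.1, 39.6 and 40.8 CPM at 24 h and 8.22, 5.94 and 5.35 CPM at 48 h. The libraries of each time were close together and the groups far apart. The means were 39.8 ± 0.868 and 6.5 ± 1.52 CPM (SD, n = 3 libraries each), a log2 fall of -2.61 ± 0.26 (SE), or 6.12-fold (edgeR adjusted p = 0.0015). Control roots had 9.96, 9.98 and 17.6 CPM, and 72 h roots had 86.2, 64.4 and 102.0 CPM. Both named falls were thus low at 48 h between higher levels at 24 h and 72 h.

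**Figure D2:**
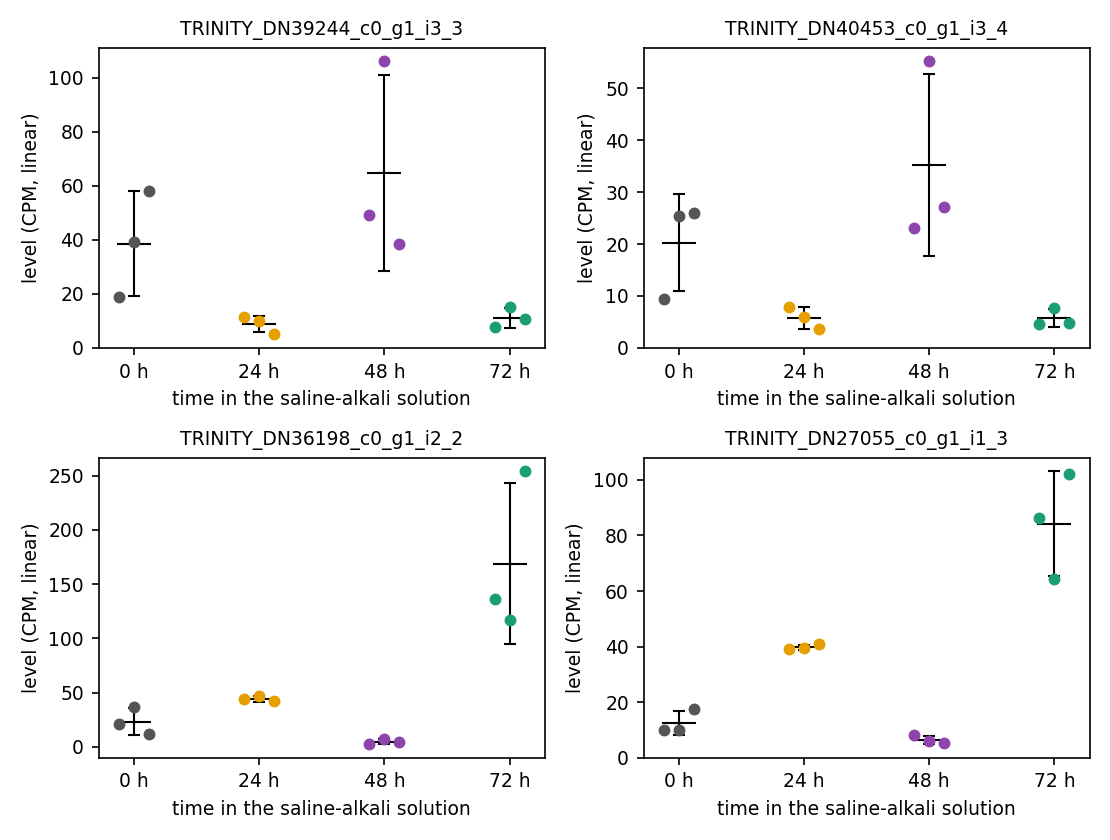
Levels of the 4 named features in CPM (linear axis) at 0, 24, 48 and 72 h; coloured points are libraries, and the black bar and whiskers are the mean and SD of 3 libraries. The upper pair had 48 h libraries above all 24 h and 72 h libraries, and the lower pair had 48 h libraries below them.

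The 48 h libraries agreed only in part on which features moved. Set against the mean of the 24 h libraries on a log2 scale, T48 replicate 1 had 1018 features at least 2-fold above and 1360 at least 2-fold below, or 11.5% of the features. T48 replicate 2 had 1727 above and 1578 below (15.9%), and T48 replicate 3 had 854 above and 1128 below (9.55%). Each 24 h library set against the other 24 h libraries in the same way had 0.174% to 0.198% of features 2-fold away. Of the 48 h libraries, only replicate 2 had more features above than below.

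**Figure D3:**
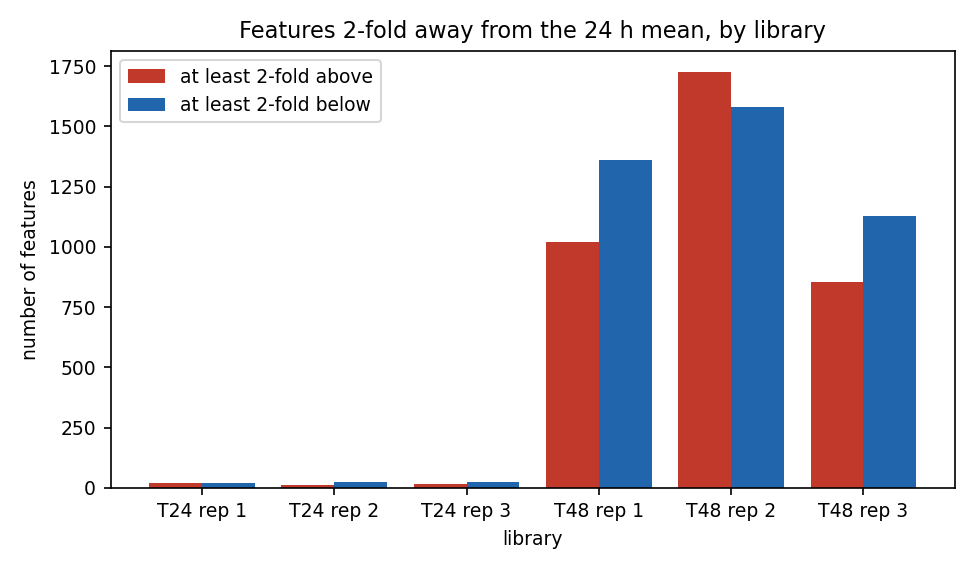
Number of the 20747 features at least 2-fold above (red) or below (blue) the mean of the 24 h libraries, for each 24 h and 48 h library; a 24 h library was set against the mean of the other 24 h libraries. The 24 h libraries had 10 to 26 features in either direction and the 48 h libraries 854 to 1727.

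T48 replicates 1 and 3 were both 2-fold above for 362 features and both 2-fold below for 591, with 69 features 2-fold away in opposite directions. Replicates 1 and 2 shared 372 and 423, with 177 in opposite directions. Replicates 2 and 3 shared 264 and 375, with 210 in opposite directions. All 3 libraries were 2-fold above for 151 features and 2-fold below for 224. The SD between libraries of a feature's log2 level had a median of 0.09 at 24 h and 0.29 at 48 h, and it was larger at 48 h for 18317 features (88.3%).

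T48 replicate 2 can be compared with the others in features called without it, although its counts entered the inclusion rule. Called without it, 250 features rose and 379 fell, 1.67% of all 82262 features tested in that fit being called. The 250 rises had a median level of 18.1 CPM at 24 h and 40.9 CPM in T48 replicates 1 and 3. In T48 replicate 2, which had no part in this test but did enter the inclusion rule, their median was 37.8 CPM. The 379 falls had a median of 39.8 CPM at 24 h, 16.9 CPM in T48 replicates 1 and 3 and 25.7 CPM in T48 replicate 2. In this library the median of the falls therefore lay between the 24 h level and that of the other 48 h libraries. T48 replicates 1 and 3 helped choose these sets, so their medians can lie too far from the 24 h level. No such medians were worked out with T48 replicate 1 or 3 held out. The gap is therefore not read as particular to T48 replicate 2. A fall that was faint in T48 replicates 1 and 3 could be included through a higher level in T48 replicate 2. The part of the inclusion rule in this was not tested. Of the 314 rises and 277 falls called with all libraries, 178 and 166 were also called without replicate 2, and 0 were called in the opposite direction.

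Median levels of the called features at 72 h were close to those at 24 h. The 314 rises had median levels of 31.7 CPM in control roots, 19.0 at 24 h, 45.3 at 48 h and 19.1 at 72 h. The 277 falls had median levels of 20.7, 33.9, 14.4 and 34.5 CPM at the same times, against 19.1, 18.0, 18.6 and 18.1 CPM for all 20747 features. The difference between 24 h and 48 h chose these sets and is no finding in them. The 0 h and 72 h levels had no part in the choice except through the spread that all 12 libraries share. The median log2 changes of the rises were -0.78 from 0 to 24 h, 1.13 from 24 to 48 h and -1.11 from 48 to 72 h. Those of the falls were 0.72, -1.12 and 1.07. Successive steps share libraries, so these values are given side by side and no relation is read from them.

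By library, the 314 rises stood at 0.72 to 0.83 (median log2 above the 24 h mean) in the controls, 0.88 to 1.25 at 48 h and -0.15 to 0.11 at 72 h. T48 replicate 3 was the lowest of the 48 h libraries there, and it was the 48 h library nearest to the 24 h level for 195 of the 314. The 277 falls stood at -0.82 to -0.57 in the controls, -1.18 to -1.04 at 48 h and -0.11 to 0.03 at 72 h. Here the nearest 48 h library was replicate 1, 2 or 3 for 98, 83 or 96 features. Among the features called without T48 replicate 2, 72 h medians were 20.4 CPM for the rises and 37.9 CPM for the falls, and control medians were 26.3 and 32.5 CPM. In both of these sets the control median was nearer to that of 24 h (18.1 and 39.8 CPM) than to that of T48 replicates 1 and 3 (40.9 and 16.9 CPM).

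**Figure D4:**
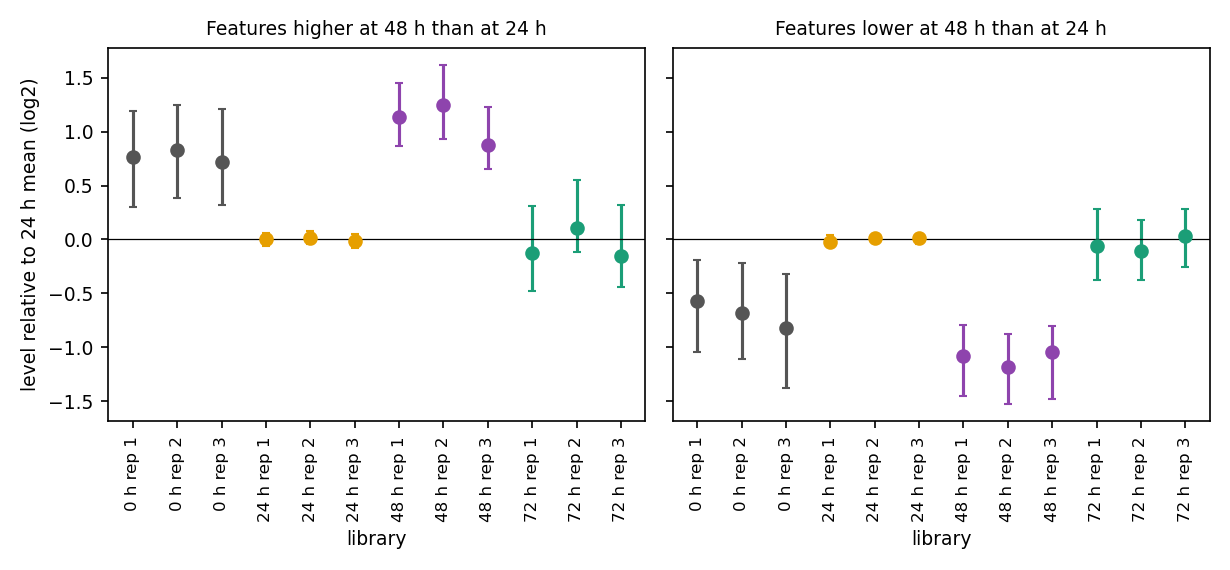
Median log2 level relative to the 24 h mean, with quartiles as whiskers, of the 314 features higher (left) and the 277 features lower (right) at 48 h than at 24 h, in each of the 12 libraries. The 72 h libraries lie between -0.15 and 0.11 in both sets, close to the 24 h libraries, while the controls lie on the side of the 48 h libraries; the 48 h values chose the sets, and in the sets called without T48 replicate 2 the control medians were nearer to those of 24 h.

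In bulk roots a lower level can come from fewer cells of a type or from less RNA per cell, and these cannot be told apart. As shares of a library, the 314 rises took 1.08% to 1.1% of deposited counts at 24 h and 1.99% to 2.5% at 48 h. They took 1.88% to 1.98% in controls and 1.02% to 1.21% at 72 h. The 277 falls took 2.0% to 2.02% at 24 h and 0.819% to 0.951% at 48 h, with 1.18% to 1.5% in controls and 1.85% to 2.2% at 72 h. The features that passed the test thus made up a small part of the root RNA measured. Both sets were chosen by their difference between 24 h and 48 h, so the gap between those shares is no finding.

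Whether the step from 24 h to 48 h differed from the step from 48 h to 72 h was tested directly, as a contrast of 48 h with the mean of 24 h and 72 h. It differed for 1423 of the 20747 features (6.86%; edgeR, adjusted p under 0.05), against a background of 2.51% of all features tested. The 48 h level was above the mean of its neighbours for 870 (4.19%, against 1.51% of all features tested) and below it for 553 (2.67%, against 0.998%). Median levels of the 870 were 35.4, 21.3, 41.8 and 17.2 CPM at 0, 24, 48 and 72 h, and those of the 553 were 24.4, 32.6, 17.5 and 39.1 CPM. The median difference between the steps was 2.25 (log2) in the first set, -2.1 in the second and 0.06 over all the features. Without T48 replicate 2, 512 lay above and 501 below. Leaving out T24 replicate 1, 2 or 3 left 471, 452 or 463. Leaving out T48 replicate 1 left 757, and leaving out T72 replicate 1 or 3 left 721 or 810. For this contrast no share over all features tested was worked out in the fits that left out a library. In the fit with the 24 h libraries averaged 0 passed (3462 at an unadjusted p under 0.05), and DESeq2 on all libraries called 3312.

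The 48 h minus 24 h changes can be set beside the 72 h minus 0 h changes, which use none of the same libraries. Across the 20747 features, which are not independent replicates, these changes had a Pearson correlation of -0.36 and a Spearman correlation of -0.35. With T48 replicate 2 left out the values were both -0.14, and with T48 replicate 2 as the only 48 h library they were -0.55 and -0.52. The relation was thus weaker without that library.

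The last character of a feature ID is a number, 1 to 4, which the table leaves unexplained, and rises and falls were spread over it differently. Suffix 1 was carried by 27.7% of the 20747 features, 30.4% of all features tested, 21.7% of the rises and 38.6% of the falls. Suffix 4 was carried by 25.4% of the features, 24.9% of all features tested, 35.0% of the rises and 15.9% of the falls. Suffixes 2 and 3 were carried by 23.2% and 20.1% of the rises and by 19.9% and 25.6% of the falls. The share called in either direction was 2.6% to 3.05% for each suffix. The split of rises and falls by suffix was not worked out without T48 replicate 2. Counting this number as part of the assembly gene ID, the table holds a single feature per gene ID, so transcripts of a gene were not compared. Without it the 98328 features fall under 67865 IDs. For 3006 IDs with more than a single feature among the 20747, the first pair of features had a median correlation of -0.01 over the 12 libraries (quartiles -0.32 and 0.28). Whether such pairs belong to the same gene was not tested, and features of near-identical sequence may share reads.

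At the edge of the rule, the feature just inside a mean of 5 CPM had 3.38 CPM at 24 h and 6.62 CPM at 48 h, and the feature just outside had 5.48 and 4.52 CPM. The feature just inside the minimum per group had 12.523 CPM at 24 h and 1.034 CPM at 48 h, and the one just outside had 12.401 and 0.935 CPM. Of the 20747 features, 899 were under 5 CPM at 24 h and entered through their 48 h level, and 42 of these were among the rises. Another 787 were under 5 CPM at 48 h and 41 of these were among the falls. Among the 19061 features at 5 CPM or more at both times, 272 rose and 236 fell.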

How the data were processed

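Root RNA was extracted with TRIzol, and libraries were read as pairs of 150 bp on an Illumina NovaSeq instrument, per the labels' protocols. The submitters' processing notes name Trimmomatic for read trimming. Assembler, aligner, counting tool and strand handling: not given in the sources used here. Values in the deposited table are estimated counts, not normalised, as its fractional values and differing totals (23099287 to 26388120) show. All 12 columns were assigned by title.

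Estimated counts were rounded, filtered with filterByExpr (76273 of 98328 features kept) and scaled with TMM. An edgeR 4.0.16 quasi-likelihood model (R 4.3.3) with 1 mean for each group (8 residual degrees of freedom) was fitted to all 12 libraries, with Benjamini-Hochberg adjustment over all features tested. The spread differed between groups, which this model takes as equal. Levels are TMM-scaled CPM, except in the inclusion rule and its alternatives, the edge of the rule, the bands of level and the library shares. Log2 levels use CPM plus 0.5. Alternatives included DESeq2 1.42.0, limma 3.58.1 with weights per group, other scalings and filters, a replicate block, and each library left out. Named features had to be called, have groups apart and reach 20 CPM; the 2 largest changes each way were taken. The features, rules and tests were chosen with earlier results of these data known.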

Additional observations from a re-analysis of the deposited data

Results flagged for a closer look

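In all 4 named features the step from 24 h to 48 h differed from the step from 48 h to 72 h by the test of that difference (edgeR, adjusted over all features tested). The difference between the steps was 5.4 ± 0.78 (SE) on the log2 scale for TRINITY_DN39244_c0_g1_i3_3 (edgeR adjusted p = 0.0073) and 5.22 ± 0.73 for TRINITY_DN40453_c0_g1_i3_4 (edgeR adjusted p = 0.0064). It was -8.27 ± 0.92 for TRINITY_DN36198_c0_g1_i2_2 (edgeR adjusted p = 0.0028) and -6.3 ± 0.51 for TRINITY_DN27055_c0_g1_i1_3 (edgeR adjusted p = 0.0011). The features were chosen for their change from 24 h to 48 h, which is part of this difference. Passing this test was therefore favoured by the choice, and the sizes and adjusted p-values are descriptions only.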

How the results depend on the processing

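The counts of rises, falls and differing steps were 314, 277 and 1423. DESeq2 gave 1103, 909 and 3312, and limma with weights per group gave 860, 694 and 1419. The fit on only the groups compared gave 574 and 551. Fitting the 20747 features alone gave 505, 481 and 2802. A minimum log2 change of 1 gave 4, 13 and 8, and averaging the 24 h libraries gave 0, 0 and 0 (558, 699 and 3462 at an unadjusted p under 0.05). Features at a mean of 20 CPM or more held 160 of the falls and 917 of the differing steps. Leaving out each library in turn gave 13 to 371 rises, 39 to 379 falls and 452 to 1555 differing steps. The median log2 change, 0.039, was -0.001 with library totals alone and 0.004 to 0.041 with a library left out. The causes were not tested.

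The replicate block gave 177 rises and 139 falls, with no share over all features tested worked out. Libraries of the same number did not deviate together between 24 h and 48 h, with correlations from -0.038 to 0.01, and 1 of 6 libraries correlated best with its own number, so the numbers were not taken as pairs. The 4 named features kept their direction in 23 of 23 alternatives each. They were chosen for large changes with groups apart, and the alternatives used the same libraries, so this was nearly fixed by the choice. The named falls passed the test in 22 of these, with edgeR adjusted p-values of 0.35 and 0.18 when the 24 h libraries were averaged, and the named rises passed in 18. The alternative of summing features by assembly gene was not run, because with the final number of the ID as part of the gene ID, as planned, each holds a single feature. Faint features were measured less precisely, whether from depth or from wider spread was not tested: the median standard error of a log2 change was 0.68 over all tested features and 0.23 in the 20747.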
